A study of Homo sapiens with 6 samples.

Results

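The 39 genes of the human HOX clusters were followed in cardiomyocytes with and without the kinase STK25. They were taken from 35793 listed genes by symbol, HOXA, HOXB, HOXC or HOXD followed by a number, which gave 11 HOXA, 10 HOXB, 9 HOXC and 9 HOXD genes and left out their antisense and other non-coding genes. The cells were heart muscle cells made from induced pluripotent stem cells of human origin and kept in RPMI medium with B27, with no treatment. Wild-type cells were WTC11, an established stem cell line, and knockout cells were a WTC11 derivative with both copies of STK25 disrupted by CRISPR/Cas9. Each genotype gave 3 biological replicates on day 15 of differentiation, and each replicate gave 1 library. The knockout was 1 line, so an effect of the edit and any other difference between the lines cannot be told apart. The labels do not say whether the replicates came from separate differentiations, and p-values measure the spread between these samples only.

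HOX genes encode homeodomain transcription factors that give cells their position along the head-to-tail axis. They stand in clusters, and in the embryo the genes at the 3′ end of a cluster, with low paralog numbers, come on earlier and further to the head than those at the 5′ end. Retinoic acid switches on the 3′ genes, CDX factors act on the central ones, Polycomb complexes keep silent genes closed, and PBX and MEIS proteins bind DNA together with HOX proteins. In the developing heart, 3′ HOX genes mark progenitors of the second heart field that build the atria and the outflow tract.

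The heart muscle label was checked first. The summed normalized counts (reads divided by 1 factor per library) of 7 cardiomyocyte genes were 793773 to 864551 (wild type) and 948286 to 984228 (knockout). Single members went different ways: NKX2-5, the cardiac homeobox gene, was called lower at 30.6% of its wild-type mean, and of those not called MYH6 was at 43.6%, MYH7 at 2.51 times and ACTN2 at 2.23 times theirs. STK25 itself had 8119 ± 1168 normalized counts in the wild type and 3720 ± 251 in the knockout (SD, n = 3 each; limma adjusted p = 0.00903). Leaving out replicate 1 of the wild type gave an adjusted p of 0.0611. Wild-type replicate 2 and knockout replicate 1 stood apart from their own groups. Chi-square per degree of freedom was 162 and 325 for the pairs with wild-type replicate 2 against 18.9 for the other wild-type pair, and 259 and 363 for the pairs with knockout replicate 1 against 42.8. HOX results and the calls of other named genes are therefore also given without these 2 libraries. Of 15536 genes tested, 1982 (12.8%) had an adjusted p under 0.05 with limma, 927 higher and 1055 lower in the knockout. Scaling the libraries to equal totals took the median over all genes, as a log2 fold change, from 0.0052 to -0.27, and the share of higher genes among the calls from 46.8% to 27.4%.

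HOXB gave between 93.7% and 99.8% of the summed HOX normalized counts in each library. HOXB2 fell to 16.4% of its wild-type mean and HOXB5 to 2.03%, while HOXB13, at the other end of the same cluster, rose 8.98-fold. HOXB3 and HOXB4 were at 35.6% and 28.6% of their wild-type means but did not pass the test. The remaining 34 HOX genes had a mean under 10 normalized counts and were not tested, the highest single value among them being 51 reads of HOXB1 in wild-type replicate 3. With limma, 3 of the 39 HOX genes had an adjusted p under 0.05, beside 12.8% of all tested genes. Only 5 HOX genes, all of them HOXB, had the mean of at least 10 normalized counts that the test required, so this count speaks for those genes and not for the family. When every gene with a read was fitted, 25 HOX genes entered and 3 were called, beside 7.36% of all genes in that fit.

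**Figure D1:**
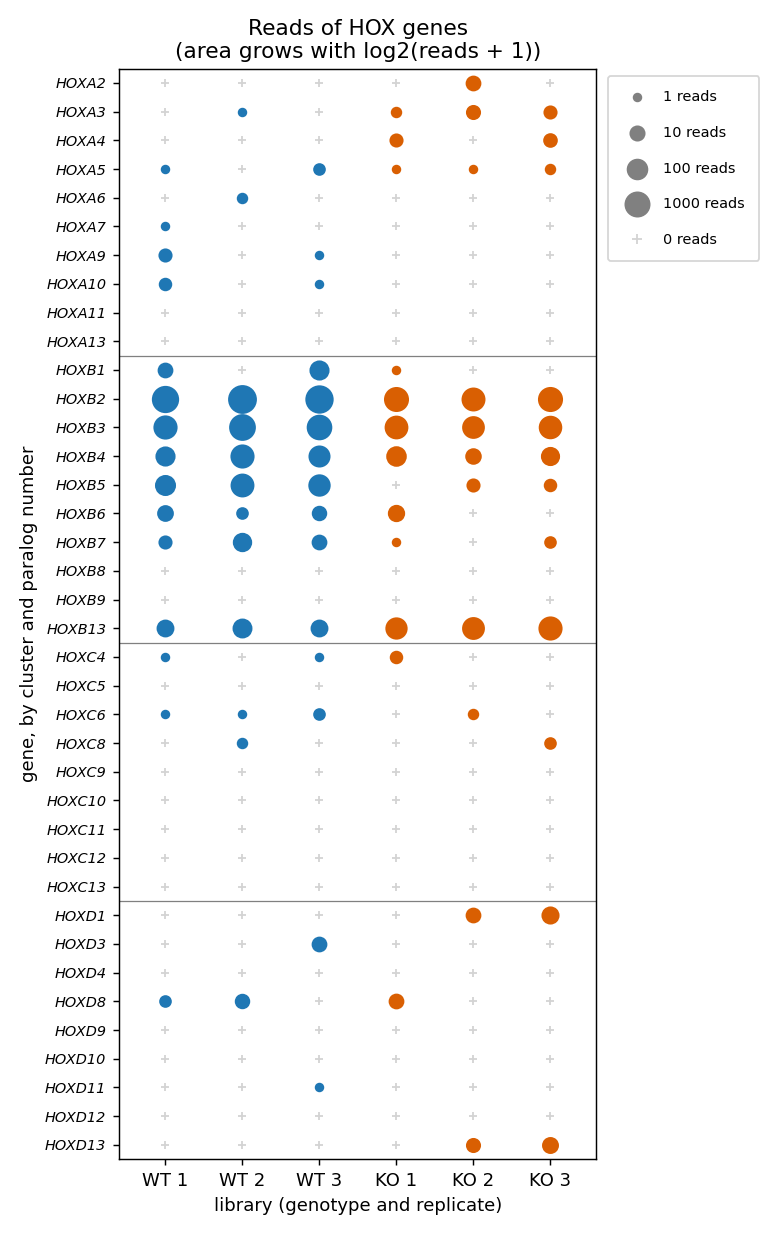
Reads of HOX genes (vertical axis, by cluster and paralog number) in the 6 libraries (horizontal axis, wild type in blue, knockout in orange). Circle area grows with log2(reads + 1) and a cross is 0 reads; HOXB2 to HOXB5 and HOXB13 carry nearly all reads, and 14 genes have none.

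Genes with no read were found mostly in the central and posterior parts of the clusters. There were 14 HOX genes with 0 reads in all 6 libraries. They were HOXA11 and HOXA13, HOXB8 and HOXB9, HOXC5 and HOXC9 to HOXC13, and HOXD4, HOXD9, HOXD10 and HOXD12. A count of 0 allows up to 3 reads, which is between 1.91 and 4.53 normalized counts depending on the library. Another 6 genes, HOXA5, HOXA6, HOXA7, HOXC6, HOXC8 and HOXD11, had at most 3 reads in every library. Above 3 reads in some library were 7 of 15 central genes (paralogs 4 to 8) and 4 of 16 posterior genes (paralogs 9 to 13). In the HOXC cluster the highest value was 4 reads, for HOXC4 in knockout replicate 1.

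HOXB lies on chromosome 17 from 48528526 to 48729178 (GENCODE 29, GRCh38), a span of 201 kb that is read on the minus strand. Its summed normalized counts, listed in every case in the order of replicates 1, 2 and 3, were 4007, 6023 and 3337 in the wild type. The knockout sums were 1400, 790 and 1124, all below every wild-type library. The wild-type mean was 4.03 times the knockout mean. Per kb of merged exon, HOXB2 made up 85.9% ± 2.90 of all HOX normalized counts in the wild type and 61.6% ± 6.24 in the knockout (SD, n = 3 each). The share of HOXB13 on the same scale was 0.562%, 0.469% and 0.289% in the wild type and 11.1%, 22.2% and 23.5% in the knockout. These shares depend on the length used. Per kb of median transcript length, the knockout means were 588 for HOXB2, 190 for HOXB3 and 68.0 for HOXB13, which makes the HOXB13 share smaller.

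HOXB2 (ENSG00000173917.10, chromosome 17, 48540894 to 48544989), a patterning gene of the hindbrain and the most abundant HOX gene here, had 3183, 4246 and 2593 normalized counts in the wild type. The knockout libraries had 740, 366 and 535. The lowest wild-type library was thus more than 3 times the highest knockout library. Its log2 fold change, -2.64 ± 0.31 (SE), had a limma adjusted p of 0.0020. The adjusted p stayed between 4.56e-12 and 0.015 over all 19 alternatives. By wild-type level, not corrected for length, it ranked 2264 of the 15536 tested genes, and its fall ranked 355 among the 1055 genes called lower.

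HOXB3 (ENSG00000120093.11, chromosome 17, 48548870 to 48604912) acts beside HOXB2 in the hindbrain and the pharyngeal arches. It had 557, 1197 and 514 normalized counts in the wild type and 379, 197 and 232 in the knockout. The genotypes did not overlap, and wild-type replicate 2 stood well above the other libraries. At a log2 fold change of -1.43 ± 0.40 (SE), its limma adjusted p of 0.0568 missed the threshold. It passed in 4 alternatives, which were equal totals (-1.71, limma adjusted p = 0.0195), DESeq2 (-1.49, adjusted p = 0.00672), and limma without knockout replicate 1 (-1.71, adjusted p = 0.0311) or without both libraries that stood apart. HOXB3 shares 159 exon bases with HOXB4 and 433 with HOXB6 on the same strand, so how its reads were divided from theirs is uncertain.

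HOXB4 (ENSG00000182742.5, chromosome 17, 48575513 to 48580111), known for its effect on blood stem cells, had 78.5, 274 and 79.7 normalized counts in the wild type. The knockout had 80.1, 13.4 and 30.2, so knockout replicate 1 reached wild-type replicates 1 and 3. The log2 fold change, -1.87 ± 0.75 (SE), had a limma adjusted p of 0.156.

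HOXB5 (ENSG00000120075.5, chromosome 17, 48591257 to 48593961), a central gene with roles in vessels and the enteric nervous system, showed the steepest fall among the HOX genes tested. It had 118, 239 and 93.8 normalized counts in the wild type against 0, 5.57 and 3.55 in the knockout. In reads this was 78, 314 and 147 against 0, 5 and 4. The log2 fold change, -5.49 ± 0.83 (SE), had a limma adjusted p of 0.00553, on a scale where 1 normalized count is added to each value, so that the change of a low gene comes out too small. The size depended on the setting, from -3.54 to -6.76 over the alternatives and -4.67 without knockout replicate 1, its library at 0. HOXB5 passed the filter on low values through the wild type alone.

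HOXB13 (ENSG00000159184.7, chromosome 17, 48724763 to 48729178) is the posterior end of the cluster, best known from prostate and tail, and in mouse heart it works with MEIS1 to restrain cardiomyocyte division. It had 30.2, 35.8 and 12.8 normalized counts in the wild type and 178, 208 and 321 in the knockout. Each knockout library was above every wild-type library by a wide gap. The log2 fold change, 3.19 ± 0.49 (SE), had a limma adjusted p of 0.00601. Its rise ranked 179 among the 927 genes called higher.

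**Figure D2:**
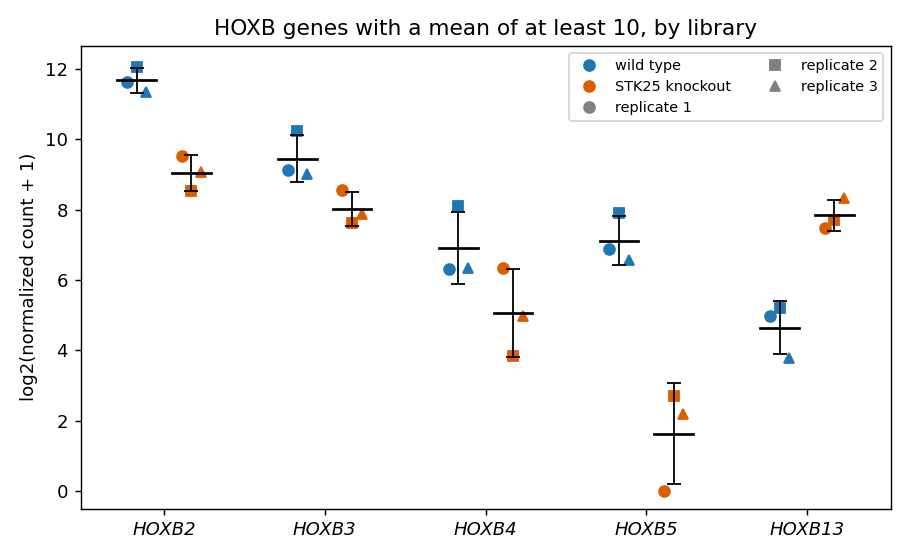
Log2(normalized count + 1) (vertical axis) of the 5 tested HOX genes in each library, wild type in blue and knockout in orange, with the shape giving the replicate and the black bars the mean and SD of 3. HOXB2, HOXB3 and HOXB5 lie lower and HOXB13 higher in every knockout library, while the HOXB4 groups overlap.

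Of the 5 tested genes, 4 had genotypes that did not overlap, beside 33.4% of all tested genes. Among the called genes, 2 were lower and 1 higher in the knockout, beside 6.79% and 5.97% of all tested genes. HOXB5 is in both counts and passed the filter on low values through the wild type alone, which limits its weight in them. All 5 kept their direction under every alternative tried, equal totals included. The calls of HOXB2, HOXB5 and HOXB13 held in each of those fits. Without wild-type replicate 2 and knockout replicate 1 together, the 5 genes all passed, beside 30.6% of all genes tested in that fit. Leaving out libraries that stood apart narrows the spread within groups, so that fit is no separate support. The log2 fold changes there were -2.70 for HOXB2, -1.32 for HOXB3, -1.92 for HOXB4, -4.28 for HOXB5 and 3.65 for HOXB13, with limma adjusted p-values from 1.08e-05 to 0.0291. HOXB1 entered that fit as the sixth gene only because its wild-type library at 0 was left out, and it passed the filter through the other wild-type libraries alone, so its call (-4.47, adjusted p = 0.0189) is no support.

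**Figure D3:**
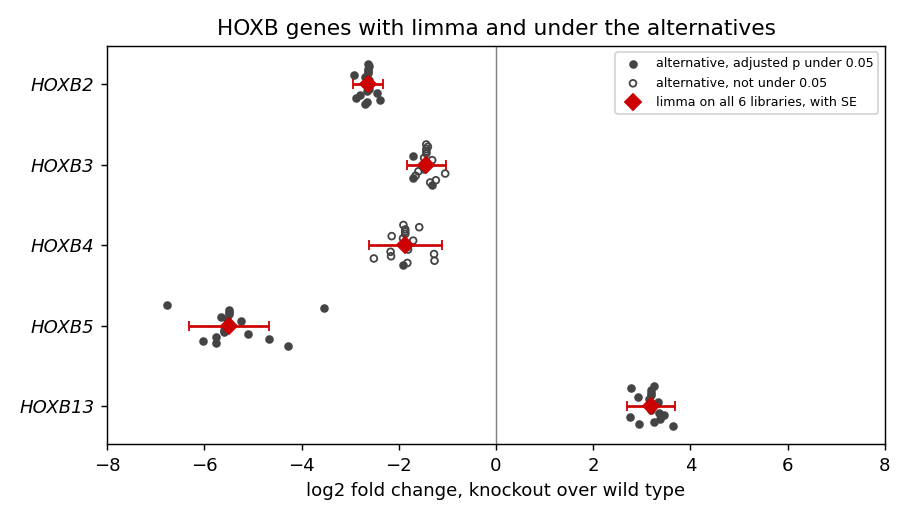
Log2 fold change, knockout over wild type (horizontal axis), of the 5 tested HOX genes (vertical axis) from limma on all 6 libraries (red, with SE) and under each alternative (grey, filled where the adjusted p was under 0.05). No point crosses zero, and HOXB3 and HOXB4 have mostly open points.

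Along the cluster, levels can be compared only per length. In wild-type libraries 1, 2 and 3 the order per kb of merged exon was the same for the leading genes, HOXB2 first, then HOXB3, HOXB5 and HOXB4. Their wild-type means were 1430, 101, 73.6 and 38.4 normalized counts per kb. HOXB7, HOXB13, HOXB1 and HOXB6 followed with means of 9.05, 7.57, 6.21 and 3.46, and their order changed from library to library. In every knockout library HOXB13 stood second after HOXB2, with a mean of 68.0 per kb against 234 for HOXB2 and 36.1 for HOXB3. HOXB5 dropped to 1.49 per kb there. Per median transcript length in place of merged exons, HOXB2 and HOXB3 were at 3592 and 532 per kb in the wild type, and the order HOXB2, HOXB3, HOXB5, HOXB4 was kept. On that scale the knockout means were 588 for HOXB2, 190 for HOXB3 and 68.0 for HOXB13, so HOXB3 then stood above HOXB13.

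**Figure D4:**
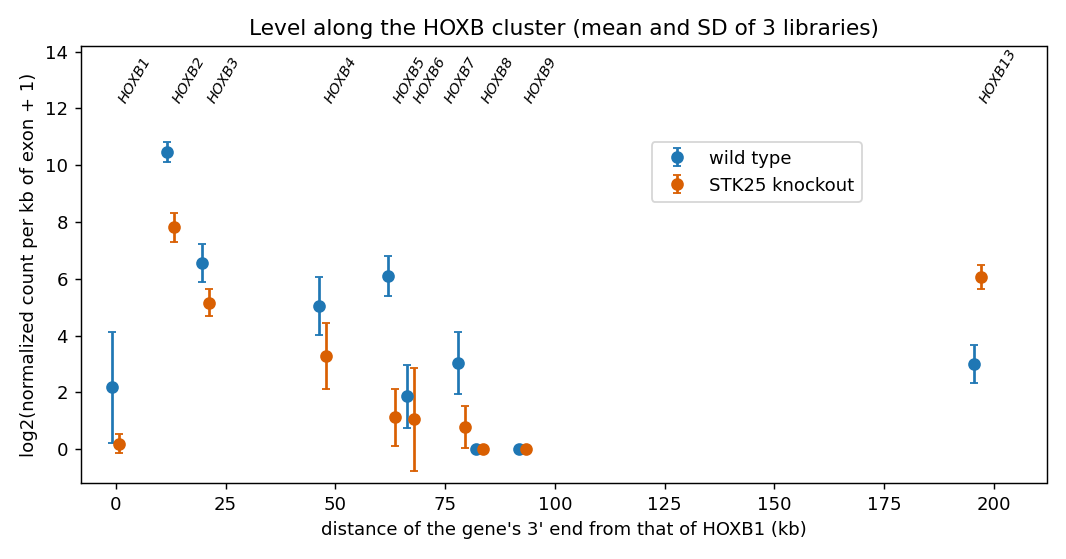
Level of each HOXB gene (vertical axis, log2 of normalized count per kb of exon + 1, mean and SD of 3 libraries) against the distance of its 3′ end from that of HOXB1 in kb (horizontal axis). HOXB2 to HOXB5 are lower in the knockout (orange) than in the wild type (blue), HOXB8 and HOXB9 are at zero, and HOXB13, at 196 kb, is higher.

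The untested HOXB genes had few reads. HOXB7 had 5, 37 and 9 reads in the wild type and 1, 0 and 3 in the knockout, with no overlap in normalized counts (log2 fold change -2.55, limma adjusted p = 0.125 when every gene with a read was fitted). HOXB6 had 13, 3 and 8 reads in the wild type and 16, 0 and 0 in the knockout, and 16.6% of its exon bases are shared with HOXB3. HOXB7 and HOXB6 thus gave no call, and HOXB6 overlapped between the genotypes.

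HOXB1 and HOXD1, paralogs that are among the first HOX genes to come on in the embryo, were each read in 1 genotype almost alone. HOXB1 had 9, 0 and 51 reads in the wild type and 1, 0 and 0 in the knockout. HOXD1 had 0 reads in each wild-type library and 0, 9 and 22 in the knockout. In both genes a library of the higher genotype was at 0, wild-type replicate 2 for HOXB1 and knockout replicate 1 for HOXD1. Those are the libraries that stood apart from their groups. When every gene with a read was fitted, the log2 fold changes were -2.58 for HOXB1 and 2.61 for HOXD1 (limma adjusted p = 0.287 and 0.203), and neither passed.

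HOXB1 keeps itself on in the hindbrain through sites bound by PBX and HOX proteins together, so its promoter and that of HOXD1 are shown to compare a pair with unlike reads. The sequences are from RefSeq on GRCh38.p14 and end where transcription is first annotated. HOXB1 is chr17:48531012-48531261 (minus strand) and HOXD1 is chr2:176188418-176188578 (plus strand). Capitals mark matches to TGATNNAT, a PBX and HOX site, searched on both strands beside TTTATNG for CDX factors and a direct repeat of the kind bound by retinoic acid receptors, GNTCA followed after 6 bases by GNTCA.
HOXB1: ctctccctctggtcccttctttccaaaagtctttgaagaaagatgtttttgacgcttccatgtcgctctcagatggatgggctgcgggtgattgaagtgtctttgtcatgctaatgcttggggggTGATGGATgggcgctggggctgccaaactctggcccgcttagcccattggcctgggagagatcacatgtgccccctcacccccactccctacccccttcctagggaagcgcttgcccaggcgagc
HOXD1: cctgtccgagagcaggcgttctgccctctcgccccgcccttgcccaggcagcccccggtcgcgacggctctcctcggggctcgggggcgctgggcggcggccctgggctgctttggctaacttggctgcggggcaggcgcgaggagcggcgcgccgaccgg

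The HOXB1 stretch held 1 match to TGATNNAT and 7 CG dinucleotides in 250 bases, and the HOXD1 stretch no match to any of the 3 motifs and 21 CG dinucleotides in 161 bases. The 27 RefSeq windows of HOX genes, each of 300 bases, came from 20 genes, so some genes count more than once. Of these windows 3 held TGATNNAT (those of HOXA2, HOXB1 and HOXD11), beside 7.4% of all 35116 windows. TTTATNG was found in 7 of the 27 (from HOXA3, HOXA9, HOXA10, HOXC4, HOXC5 and HOXD8), beside 9.73%, and the direct repeat in 0, beside 0.729%. HOX windows had a median of 22 CG dinucleotides and all windows 14. A match is only a match of letters. The called genes HOXB2, HOXB5 and HOXB13 are among the 19 with no entry in that table.

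Outside HOXB single genes had a few reads in 1 genotype or the other. HOXA3, a gene of the pharyngeal arches, thymus and parathyroid, had 0, 1 and 0 reads in the wild type and 2, 7 and 5 in the knockout, with no overlap (log2 fold change 2.20, limma adjusted p = 0.0712 when every gene with a read was fitted). Knockout replicate 1, at 2 reads, was within the 3 reads that a count of 0 allows, so its gap to the wild type is within counting error. HOXA2 had 9 reads in knockout replicate 2 and 0 elsewhere. HOXA4 had 5 and 6 reads in knockout replicates 1 and 3 and 0 elsewhere. HOXA9 and HOXA10 had 5 and 4 reads in wild-type replicate 1 and at most 1 read in any other library.

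In HOXD the summed values were 4.53, 6.09 and 6.38 normalized counts in the wild type and 11.4, 17.8 and 32.0 in the knockout. These sums rest on 3, 8 and 10 reads in the wild type and 9, 16 and 36 in the knockout. The reads overlapped between the genotypes though the normalized counts did not, and the sums were not tested. HOXD8 alone gave the 9 reads of knockout replicate 1. HOXD1 and HOXD13, the outermost genes at the 2 ends of the cluster, made up all HOXD reads in knockout replicates 2 and 3. HOXD13, the gene of digits and genital tubercle, had 0 reads in the wild type and 0, 7 and 14 in the knockout. HOXD8 had 3, 8 and 0 reads in the wild type and 9, 0 and 0 in the knockout, and HOXD3 had 9 reads in wild-type replicate 3 alone. HOXD1 and HOXD13 thus had their reads in the same knockout libraries, replicates 2 and 3.

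Other genes in or beside the clusters were compared next. Of 25 such genes, 21 were tested, 5 were higher in the knockout and 0 lower, beside 5.97% and 6.79% of all tested genes, with a median log2 fold change of 0.27 against 0.0052 for all tested genes. EVX2 is a homeobox gene 8.98 kb from HOXD13. It had 4.53, 7.62 and 7.02 normalized counts in the wild type and 31.8, 55.7 and 76.4 in the knockout (2.85 ± 0.58, SE, as a log2 fold change, limma adjusted p = 0.0185). EVX2 passed the filter on low values through the knockout alone, which limits its weight in the count of higher genes. Its HOXA counterpart EVX1 had 0, 0 and 1 reads in the wild type and 1, 13 and 5 in the knockout, too few for a test. PRAC2, which lies inside the HOXB cluster between HOXB9 and HOXB13, on the other strand and 4 bases from HOXB13, had 9.06, 22.9 and 6.38 normalized counts in the wild type and 127, 65.8 and 80.0 in the knockout (2.87 ± 0.59, SE, as a log2 fold change, limma adjusted p = 0.0193). PRAC2 and HOXB13 share no annotated exon bases. Use of strand in the counting is not given in the sources used here, so reads that run past the annotated end of either gene could be counted for the other.

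SKAP2, an adaptor gene beside the 3′ end of HOXA, rose by 1.60 ± 0.30 on the log2 scale (SE; limma adjusted p = 0.0141). TAX1BP1, an autophagy receptor gene on the 5′ side of HOXA, rose by 1.03 ± 0.20 on that scale (SE; limma adjusted p = 0.0138). LNPK, on the 5′ side of HOXD, rose by 1.08 ± 0.25 (SE; limma adjusted p = 0.0283), a call that equal totals ended (0.80, adjusted p = 0.164). SKAP1, beside HOXB1, had 17, 32 and 8 reads in the wild type and 1, 2 and 0 in the knockout and was not tested. Each of these 5 calls ended when certain single libraries were left out, while the log2 fold changes without 1 library stayed at 2.57 to 3.19 for EVX2, 2.51 to 3.36 for PRAC2, 1.42 to 1.81 for SKAP2, 0.91 to 1.15 for TAX1BP1 and 0.94 to 1.29 for LNPK. EVX2 lost its call without wild-type replicate 1 or 3 or knockout replicate 2 or 3, with adjusted p-values from 0.0599 to 0.0913. PRAC2 and TAX1BP1 lost theirs without wild-type replicate 1 or 3 or knockout replicate 3 (0.0683 to 0.078 and 0.0659 to 0.0764). SKAP2 lost its call without wild-type replicate 1 or knockout replicate 2 or 3 (0.0531 to 0.0687). LNPK lost its call without any library but knockout replicate 1 (0.065 to 0.113). Of tested genes within 1 Mb that are not HOX genes, 1 was higher and 6 lower of 33 around HOXB, 3 higher and 0 lower of 8 around HOXA, 2 higher and 5 lower of 33 around HOXC and 2 higher and 0 lower of 5 around HOXD. The shares called were 21.2%, 37.5%, 21.2% and 40%, beside 12.8% of all tested genes, and the median log2 fold changes 0.13, 0.10, -0.22 and 0.89. These counts include the 5 calls above, PRAC2 around HOXB, SKAP2 and TAX1BP1 around HOXA, and EVX2 and LNPK around HOXD. They are thus no separate support for those calls. Within HOXB itself HOXB2 was at -2.64, HOXB5 at -5.49 and HOXB13 at 3.19.

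Among the cofactors of HOX proteins, all 9 PBX, MEIS and PKNOX genes were tested, and 1 was called lower and 0 higher, a share near the 12.8% of all tested genes, with a median log2 fold change of -0.23. PBX3 had 3196, 2769 and 3069 normalized counts in the wild type and 1616, 1567 and 1721 in the knockout, and fell by 0.88 on the log2 scale with an SE of 0.17 (limma adjusted p = 0.0158). That call was lost without wild-type replicate 1 or 3 or knockout replicate 2 or 3, with adjusted p-values from 0.0599 to 0.093. MEIS1, the partner of HOXB13 in mouse heart, was at -0.40 ± 0.28 on the log2 scale (SE; limma adjusted p = 0.409), and its libraries overlapped between the genotypes, as did those of all cofactors but PBX3.

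Among 12 upstream regulators 6 were tested, 2 were higher and 0 lower, beside 5.97% and 6.79% of all tested genes. ALDH1A2, which makes retinoic acid, had 0, 7.62 and 11.5 normalized counts in the wild type and 90.2, 224 and 254 in the knockout (5.19 ± 0.99, SE, as a log2 fold change, limma adjusted p = 0.0141). ALDH1A2 passed the filter on low values through the knockout alone, which limits its weight in the count of higher genes. Its call ended without knockout replicate 3 (4.91, adjusted p = 0.066) and with a pseudocount of 0.1 (6.38, adjusted p = 0.0541), and without wild-type replicate 1, its library at 0, the value was 4.07. GBX2, a homeobox gene of the midbrain and hindbrain border, rose by 2.91 ± 0.59 on the log2 scale (SE; limma adjusted p = 0.0178). Its call ended without wild-type replicate 3 or knockout replicate 3 (0.0507 to 0.0788). The retinoic acid receptor RARG was at -1.05 ± 0.28 on the log2 scale (SE; limma adjusted p = 0.0501). CDX1 had 0 reads in the wild type and 0, 9 and 11 in the knockout, in the same libraries as HOXD1 and HOXD13, and CDX2, CDX4 and CYP26C1 had none anywhere. CYP26A1, which breaks retinoic acid down and is switched on by it, had 8 reads in knockout replicate 3 and 0 elsewhere.

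Chromatin regulators of the clusters gave 0 higher and 2 lower calls among 16 tested, a share near the 12.8% of all tested genes, with a median log2 fold change of -0.12. CBX8, a Polycomb reader, had 329, 329 and 299 normalized counts in the wild type and 100, 126 and 148 in the knockout (-1.36 ± 0.28, SE, as a log2 fold change, limma adjusted p = 0.0186). EZH2, the Polycomb methyltransferase, had 1361, 874 and 1281 in the wild type and 281, 471 and 685 in the knockout (-1.35 ± 0.36, SE, as a log2 fold change, limma adjusted p = 0.0459). CBX8 lost its call without wild-type replicate 1 or 3 or knockout replicate 2 (0.054 to 0.0913), and EZH2 without any library but knockout replicate 3 (0.0524 to 0.172). EZH2 lost its call in 10 of 19 alternatives, among them equal totals (0.0501) and edgeR (0.0521). Without wild-type replicate 2 and knockout replicate 1 together, the 10 calls among these lists, from PBX3 to EZH2, were all kept (limma adjusted p = 0.000155 to 0.0116). In that fit 30.6% of all genes tested were called. The 2 libraries were left out because they stood apart, which narrows the spread within groups, so keeping these calls is no separate support. None of the 19 non-coding genes of the clusters, such as HOTAIR and HOXB-AS3, was found by symbol among the 35793 listed genes, so none could be analysed. Where antisense genes share exon bases with a HOX gene, as HOXB-AS1 does with 3.72% of HOXB2 and HOXB-AS3 with 3.58% of HOXB5, their reads cannot be told apart.

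**Figure D5:**
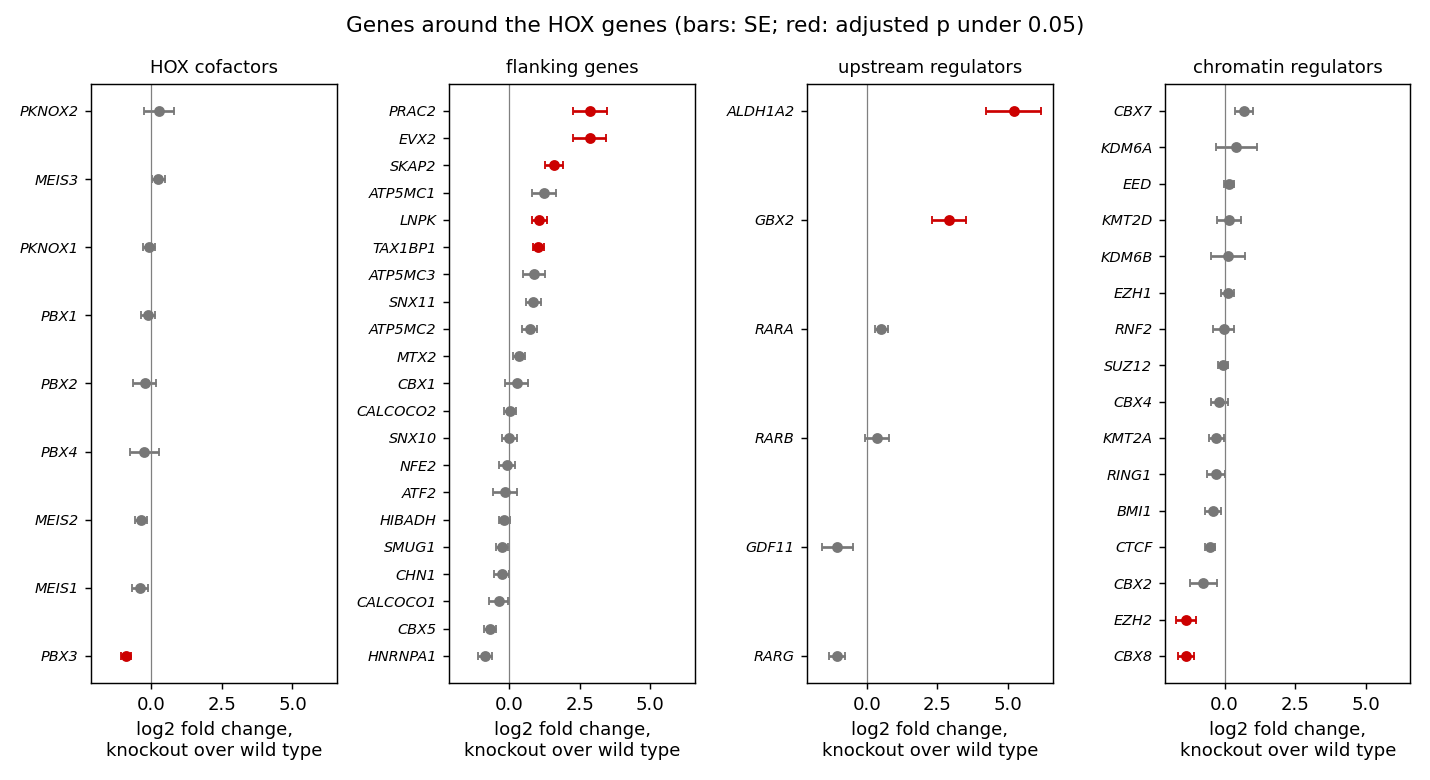
Log2 fold change, knockout over wild type, with SE (horizontal axis) of each tested gene in 4 lists tied to the HOX genes (vertical axis), red where the limma adjusted p was under 0.05. Genes in or beside the clusters (flanking) show 5 red points and upstream regulators 2, all to the right, and cofactors show 1 and chromatin regulators 2, all to the left.

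Markers of other cell types moved with the genotypes as well, and their part in the HOX differences was not tested. In bulk RNA, fewer cells of a type and less RNA per cell cannot be told apart. Counts of calls are given over the tested members, beside 5.97% higher and 6.79% lower of all tested genes. Of 6 smooth muscle genes 5 were higher, and the other, MYOCD, was not called and was at 63.4% of its wild-type mean. Summed normalized counts of these genes were 83548 to 96190 in the wild type and 495646 to 543358 in the knockout. ACTA2 carried most of the knockout sums. Neural genes had 3 of 5 higher (SOX2, PAX6 and TUBB3), but SOX2 and PAX6 passed the filter on low values through the knockout alone. The neural sums of 4552 to 7868 and 7103 to 16924 were carried by NES, which was not called and overlapped between the genotypes. Stromal genes had 3 higher (TCF21, DCN and COL3A1) and 1 lower (COL1A2) of 9. Their sums of 12976 to 26581 and 8312 to 17121 were carried by COL1A1 and COL1A2, and the median log2 fold change had the other sign, 0.86. Epicardial genes had 1 higher (ALDH1A2, also an upstream regulator) and 1 lower (KRT19) of 6. KRT19 alone carried the sums of 11602 to 15387 and 5515 to 5817, and the median log2 fold change had the other sign, 0.69.

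Pluripotent genes had 1 higher of 4 (TDGF1), which carried most of the sums of 905 to 979 and 3080 to 4462. Endoderm and liver genes had 1 lower of 3 (AFP, which passed the filter on low values through the wild type alone), with FOXA2 at 0 reads. Their sums of 1672 to 3009 and 1205 to 1252 were carried by APOA1, which was not called. Endothelial genes, at 139 to 466 and 367 to 545, and paraxial mesoderm and skeletal muscle genes, at 36.4 to 51.4 and 46.8 to 85.2, had no call, and of the latter MEOX2, PAX7, MYF5 and MYOD1 were at 0 in all libraries.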

How the data were processed

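RNA was sequenced from 6 libraries, 3 per genotype. Per the submitters' processing notes, the tools named were bcl2fastq 2.19, kallisto 0.44.0 and DESeq2 1.28.1 with GRCh38; the annotation and any use of strand are not given in the sources used here. The deposited values are a signal that the authors' table calls normalized counts. Every value was a whole multiple of 1 step per library (100% of values, tolerance 1e-06), so reads, here whole estimated counts, were recovered; 0 columns were left unused. Depth ran from 22443904 to 53224112 reads, and a count of 0 allows up to 3 reads, for counting error only.

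Genes with a mean of at least 10 normalized counts were tested with limma 3.58.1 in R 4.3.3 on log2(value + 1) (lmFit, eBayes with a trend, two-sided, Benjamini-Hochberg over 15536 genes, threshold 0.05). edgeR 4.0.16 (quasi-likelihood test) and DESeq2 1.42.0 on the recovered reads, other pseudocounts, filters and scalings, a replicate block, robust eBayes and leaving out libraries were alternatives. The fits were tested on simulated data. No replicate pair was a repeat of 1 library (chi-square per degree of freedom at least 18.9). Positions and exon lengths came from GENCODE 29 on GRCh38 by symbol. Promoter windows came from RefSeq on GRCh38.p14, where 20 of the 39 HOX genes had at least 1. The values of 1 HOX gene are not reported here. Values in every library were given for HOX genes with an adjusted p under 0.05 or a mean of at least 50 in 1 genotype. They were also given for low genes where few reads carry the account. Of other lists up to 5 members with an adjusted p under 0.05 were named. EVX1, CDX1, CYP26A1, SKAP1, MEIS1, RARG, NKX2-5, MYH6, MYH7, ACTN2, COL1A1, MYOCD, NES and APOA1 were named after their values were seen. The members and lists were chosen with earlier results of these data known. Figures were drawn with matplotlib 3.10.9.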

Additional observations from a re-analysis of the deposited data

How the results depend on the processing

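Of the 19 alternatives to limma on all 6 libraries, 18 left the number of HOX genes called at 3 or 4, and leaving out wild-type replicate 2 and knockout replicate 1 together gave 6, HOXB1 among them (tested only there or with no filter). Over all genes the count of 1982 became 798 with the replicate number as a block, 3210 with DESeq2, 4706 without those 2 libraries and 792 to 2192 without 1 library in turn; with 1 library left out the HOX count ran from 3 to 4. The replicate block called 3 HOX genes too, but ended the calls of STK25 (adjusted p = 0.0684) and of 9 of 10 other named genes, PBX3, PRAC2, EVX2, SKAP2, LNPK, TAX1BP1, GBX2, CBX8 and EZH2 (up to 0.119), keeping that of ALDH1A2. Deviations of same-numbered libraries correlated at -0.23, -0.40 and 0.17, which gave no sign of pairing by replicate number. Deviations from a mean of 3 libraries are not independent, so these correlations cannot exclude a pairing. The highest correlation, 0.45, was between wild-type replicate 2 and knockout replicate 1, the libraries that stood apart. Wild-type replicate 3 and knockout replicate 2 followed at 0.32. Wild-type replicate 1 was at 0.20 with knockout replicate 2 and at 0.13 with knockout replicate 3. Whether libraries of the 2 genotypes shared a batch under other numbers was not tested. With edgeR 1864 genes and 3 HOX genes were called. For 16 single genes, 248 of 303 alternatives left the call as it was, 50 lost it, 5 gained it (4 for HOXB3 and 1 for HOXB4) and 0 changed direction. Few reads limit what can be said of the 34 untested HOX genes, whose highest count in any library was 51 reads.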
